A study of Mus musculus with 30 samples.

Results

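The 6 transcription factors described here carry time from the circadian clock to its output genes: Dbp, Tef and Hlf, their antagonist Nfil3, and Bhlhe40 (DEC1) and Bhlhe41 (DEC2). They were chosen by name, and all 6 were found among the 20764 genes counted in mouse hearts and among the 54532 counted in HL-1 cells. All 6 passed the filter on low counts, among 15443 genes tested in hearts and 14760 in HL-1 cells. Sequenced were 18 hearts, all from female mice labelled C57BL6 (by the study's methods a mixed J/N background), and 12 libraries of HL-1 cells, with 3 in each of the 6 heart groups and 4 HL-1 groups. Young mice were 2 months old and drank water without nicotinamide riboside (NR), a precursor of NAD+. Old mice were 12 months old and drank either water without NR (old H2O) or water with 3 g/l NR (old NR), given from 2 months of age. Each of these 3 groups was sampled at ZT10, which is 10 h after lights on, and at ZT22, in the dark. All mice, the young ones included, were kept in a light/dark cycle on chow. HL-1 is a line grown from atrial tumors of a female mouse, and its libraries came from untreated cells, from cells given FK866, which blocks NAD+ synthesis by NAMPT, from cells given FK866 and NR, and from cells given FK866, NR and the sirtuin inhibitor Ex527. By the study's methods, replicates are individual mice or separately cultured wells, the latter here all of 1 cell line. Heart libraries held between 3922137 and 7562215 counts (median 5534659), and HL-1 libraries between 21337922 and 35000109 (median 25529294).

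The hearts carried cardiomyocyte markers at high levels in every library, with Ryr2, Myh6 and Tnnt2 at means of 10600, 10200 and 5300 normalized counts (counts divided by library size with its TMM factor and set to the mean library). Across libraries of unlike depth, Myh6 stayed between 9056 and 10336 counts and Actc1 between 2549 and 2847, while Ryr2 ran from 7638 to 14094 and Tnnt2 from 4289 to 6526. Atrium markers varied from heart to heart within groups, with summed normalized counts of 871.8 to 4202 among young hearts at ZT10 and 693.5 to 2995 in old H2O hearts at ZT22. Their part in the results below was not tested. Old NR replicates 1 and 3 at ZT10 stood unusually close to each other. A chi-square test over 12678 genes gave 1.06 per degree of freedom (p = 3.71e-07), and 1.01 (p = 0.2) without Sun1, which had 811 counts in replicate 1 and 2364 in replicate 3. Sun1, a gene of a nuclear envelope protein that was singled out after its values were seen, was also high in old NR replicate 2 at ZT10 (2985 counts) and in old H2O replicates 1 and 2 at ZT22 (2555 and 1975). The 2 hearts were kept as separate samples, but a difference that rests on 1 gene does not show that they are 2 animals. Whether they are 1 heart deposited 2 times cannot be told from these values, and n = 3 for old NR hearts at ZT10 may therefore stand for 2 animals. Counting them as 1 sample changed no call of any of the 6 genes in any of the 14 heart comparisons. Over all genes it lowered the number called from 829 to 459 for ZT10 against ZT22 in old NR hearts, from 661 to 326 for old NR against young hearts at ZT10 and from 44 to 0 for old NR against old H2O hearts at ZT10.

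The molecular clock turns on a loop in which CLOCK and BMAL1 (gene Arntl) bind E-box sequences and switch on, among others, the Per, Cry and Nr1d genes, whose products close the loop. DBP, TEF and HLF form the PAR bZIP family: they bind D-box sequences and activate genes there. NFIL3, also called E4BP4, binds the same D-boxes and represses, and its gene is held down by the REV-ERB repressors (Nr1d1 and Nr1d2) through ROR elements. DEC1 and DEC2 are basic helix-loop-helix repressors that bind E-boxes and counter CLOCK and BMAL1, and Bhlhe40 also responds to hypoxia, growth factors and stress. In peripheral tissues these factors are known for linking the clock to metabolism.

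All coordinates are of the mouse build GRCm38 (mm10). Dbp (ENSMUSG00000059824) lies on the plus strand of chromosome 7 from 45705088 to 45710203 and Tef (ENSMUSG00000022389) on the plus strand of chromosome 15 from 81802421 to 81826863. Hlf (ENSMUSG00000003949) lies on the minus strand of chromosome 11 from 90336536 to 90390895, and Nfil3 (ENSMUSG00000056749) on the minus strand of chromosome 13 from 52967209 to 52981073. Bhlhe40 (ENSMUSG00000030103, plus strand, 108660629 to 108666925) and Bhlhe41 (ENSMUSG00000030256, minus strand, 145858243 to 145865558) are both on chromosome 6. All are protein-coding. Of these, 4 overlap exons of a gene on the other strand: Dbp shares 539 bases with Sphk2, Tef 193 with Gm17597, Bhlhe40 118 with 0610040F04Rik and Bhlhe41 1280 with Gm43909. In hearts, reads over more than 1 gene were left out by the authors. The study's methods name a stranded library preparation for the hearts. Whether strand was used in counting is not given in the sources used here, and without it reads in those stretches cannot be told apart from those of the antisense partner.

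RefSeq promoter windows of 300 bases (250 before the start and 50 after it, GRCm38.p6) were at hand for 5 of the 6 genes, with 2 starts for Tef, and were searched on both strands for 4 motifs of the clock. The E-box CACGTG was in 7.15% of all 32851 such windows, the related CACGTT in 4.68%, the D-box TTANGTAA in 2.32% and the ROR element core AGGTCA in 16.3%. No match overlapped another. The 4 matches found are printed here because they are the ones in these windows for motifs through which the clock loop is known to act: an E-box at both starts of Tef and at Bhlhe41, and a ROR element core at Nfil3. The windows of Dbp and Hlf held none of these letters. Sequence outside the windows, within the genes or beyond them, was not searched. Capitals mark the match, written 5′ to 3′ on the strand of the gene. The Tef stretches are chr15:81802506-81802591 and chr15:81811236-81811321, with the E-box at positions -127 and -138 from the start site. The Bhlhe41 stretch is chr6:145865528-145865613, with the E-box at position -153, and the Nfil3 stretch is chr13:52981040-52981091, with the core, read on the other strand, at position -12. A match is a description of the letters only.
Tef, start 1: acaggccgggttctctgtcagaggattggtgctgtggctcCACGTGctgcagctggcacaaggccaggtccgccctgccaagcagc
Tef, start 2: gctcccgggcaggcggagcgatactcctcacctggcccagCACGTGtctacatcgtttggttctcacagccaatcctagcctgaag
Bhlhe41: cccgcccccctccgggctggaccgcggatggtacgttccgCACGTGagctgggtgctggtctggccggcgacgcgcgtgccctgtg
Nfil3: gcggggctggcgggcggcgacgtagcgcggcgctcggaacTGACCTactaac

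The comparison of ZT10 with ZT22 asked how far each factor differed between the late light and the late dark phase in young and in old hearts. Dbp, Tef, Hlf, Bhlhe40 and Bhlhe41 were higher at ZT10 and Nfil3 was higher at ZT22 in young, old H2O and old NR hearts alike. All 6 passed the test in each group (edgeR's quasi-likelihood test, Benjamini-Hochberg adjusted p under 0.05), 5 higher at ZT10 and 1 lower. Of all genes tested, 14.4% were called in young hearts (6.8% higher and 7.57% lower at ZT10), 4.2% in old H2O hearts (1.56% and 2.64%) and 5.37% in old NR hearts (2.36% and 3.01%). In none of the 18 pairs of groups did the ZT10 and ZT22 hearts overlap. Of all genes, 30.6% did not overlap in young hearts, 22.2% in old H2O hearts and 22.2% in old NR hearts. Only 2 times were sampled, which give a difference between them (called the swing here) and neither amplitude nor phase. With age the difference between the times was smaller for Dbp, Tef, Hlf, Bhlhe41 and Nfil3, and in old hearts no change of it with NR passed the test. Some markers of other cell types also differed between the times. In young hearts 1 of 4 endothelium markers, Kdr, was lower at ZT10 (-0.53 ± 0.10 on the log2 scale, adjusted p = 0.000545), and the endothelium sums were 5883 to 6153 normalized counts at ZT10 against 6832 to 7538 at ZT22, with no overlap. Higher there at ZT10 were 1 of 5 atrium markers (Bmp10), 1 of 5 fibroblast markers (Lum) and 1 of 4 macrophage markers (Cd68). In old H2O hearts 1 atrium marker was higher and 1 fibroblast and 1 macrophage marker were lower at ZT10, and in old NR hearts 1 fibroblast marker was lower. Their part in the results was not tested.

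**Figure D1:**
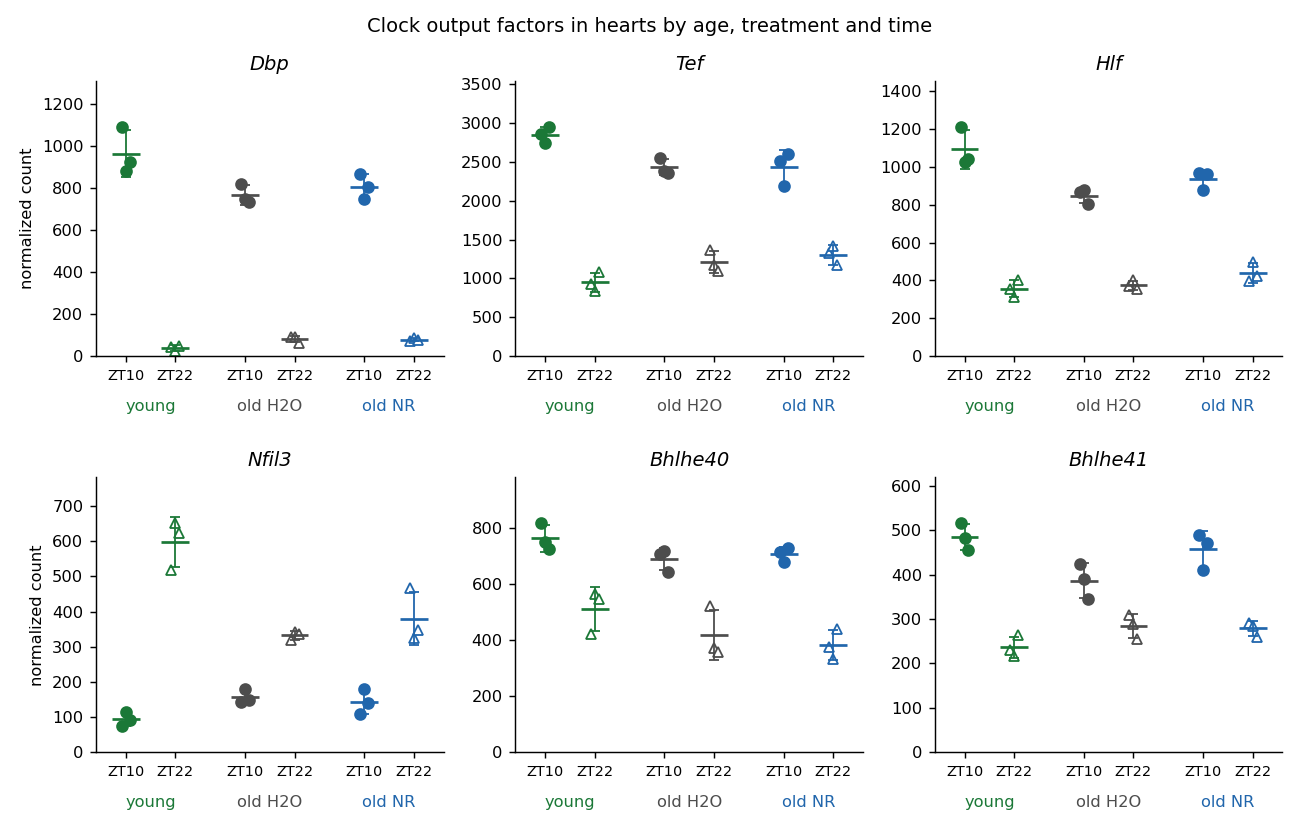
Normalized counts of the 6 genes in each of 18 hearts (vertical axes, starting at 0), by group and time (horizontal axis: filled circles ZT10, open triangles ZT22). Lines are means and bars SD (n = 3); Nfil3 is the only one of the 6 whose triangles lie above its circles, and in Dbp and Nfil3 the ZT10 and ZT22 groups lie closer together in both old groups than in young hearts.

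Dbp, a PAR bZIP activator, showed the largest difference of the 6 between the times. Its level in young hearts was 1093, 881.9 and 923.3 normalized counts at ZT10 against 43.09, 23.45 and 50.16 at ZT22. In old H2O hearts it was 823, 748.4 and 735.8 at ZT10 against 90.26, 90.98 and 64.98 at ZT22. With NR the values were 868, 749.2 and 808.1 at ZT10 and 73.85, 86.09 and 76.99 at ZT22. All 6 old hearts at ZT10 were thus below every young heart, and all 6 at ZT22 were above every young heart. The ZT10 level was 25.2-fold that at ZT22 in young hearts (log2 fold change 4.66 ± 0.15, SE, adjusted p = 1.46e-15), 9.6-fold in old H2O hearts (3.26 ± 0.13, adjusted p = 4.86e-13) and 10.1-fold in old NR hearts (3.34 ± 0.13, adjusted p = 9.02e-14).

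Tef, the thyrotroph embryonic factor, had a smaller fold difference between the times than Dbp. Its values were 2854, 2738 and 2951 normalized counts for young hearts at ZT10 and 927.7, 835.6 and 1085 at ZT22. The old H2O hearts held 2552, 2387 and 2357 at ZT10 against 1369, 1172 and 1091 at ZT22. The old NR hearts held 2512, 2190 and 2605 at ZT10 against 1333, 1419 and 1167 at ZT22. As with Dbp, all 6 old hearts at ZT10 were below every young heart, and all 6 at ZT22 were above every young heart. The difference was 3-fold in young hearts (log2 fold change 1.59 ± 0.10, adjusted p = 5.01e-10), 2.02-fold in old H2O hearts (1.01 ± 0.10, adjusted p = 1.12e-06) and 1.86-fold in old NR hearts (0.90 ± 0.10, adjusted p = 5.52e-06).

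Hlf, the third PAR bZIP factor, stood at 1212, 1028 and 1041 normalized counts in young hearts at ZT10 and at 357.4, 311.4 and 402.3 at ZT22. Without NR, old hearts held 866.2, 876.1 and 802 at ZT10 and 370.1, 402.1 and 355.6 at ZT22. With NR they held 967.9, 880.6 and 961.9 at ZT10 and 394.8, 495.6 and 426.2 at ZT22. Unlike Dbp and Tef, Hlf in old H2O hearts overlapped that in young hearts at ZT22 and lay apart from it at ZT10. The ZT10 level was 3.07-fold that at ZT22 in young hearts (log2 fold change 1.62 ± 0.09, adjusted p = 7.6e-11), 2.26-fold in old H2O hearts (1.18 ± 0.09, adjusted p = 3.24e-08) and 2.12-fold in old NR hearts (1.08 ± 0.09, adjusted p = 5.19e-08).

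Nfil3, the D-box repressor, ran the other way. Young hearts held 74.48, 114 and 91.7 normalized counts at ZT10 and 517.1, 651.8 and 624.9 at ZT22. Old H2O hearts held 143.6, 181.4 and 147.6 at ZT10 and 318.9, 343 and 335.6 at ZT22. Old NR hearts held 110, 178.7 and 139.5 at ZT10 and 465.9, 325.6 and 346.8 at ZT22. The low phase was higher and the high phase lower in old than in young hearts, with 1 overlap, that of old NR replicate 1 (110) with young replicate 2 (114) at ZT10. Nfil3 was 6.39-fold higher at ZT22 in young hearts (log2 fold change, ZT10 minus ZT22, -2.68 ± 0.16, adjusted p = 1.81e-10), 2.1-fold in old H2O hearts (-1.07 ± 0.16, adjusted p = 0.000225) and 2.58-fold in old NR hearts (-1.37 ± 0.15, adjusted p = 5.21e-06).

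The DEC genes had the smallest swings. Bhlhe41 stood at 515.8, 481.9 and 456 normalized counts in young hearts at ZT10 against 229.4, 217.6 and 263.3 at ZT22. The values were 423.7, 389.6 and 345.2 against 308.4, 289.3 and 255.6 in old H2O hearts and 488.5, 410.5 and 470.9 against 291.4, 285.2 and 260.3 in old NR hearts. Its log2 fold change was 1.04 ± 0.09 in young hearts (adjusted p = 1.25e-07), 0.46 ± 0.09 in old H2O hearts (adjusted p = 0.00541) and 0.71 ± 0.09 in old NR hearts (adjusted p = 2.78e-05). Bhlhe40 was the one factor whose swing was not smaller in old hearts. Young hearts held 818.2, 749.3 and 726.1 at ZT10 against 423.3, 565.5 and 546.5 at ZT22 (log2 fold change 0.57 ± 0.12, adjusted p = 0.00164). Old H2O hearts held 706.2, 717.7 and 643.9 against 520.5, 373 and 359.2 (0.76 ± 0.12, adjusted p = 0.000496), and old NR hearts 713.6, 679.8 and 730.7 against 374.6, 333.1 and 440.5 (0.89 ± 0.12, adjusted p = 4.6e-05).

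**Figure D2:**
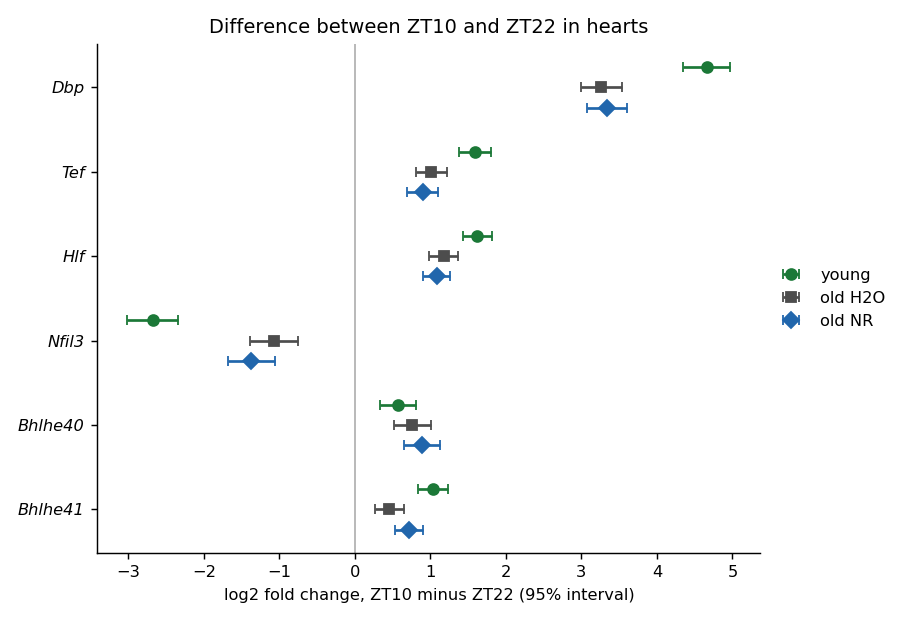
Fitted log2 fold change between ZT10 and ZT22 (horizontal axis, with 95% intervals) for each gene (vertical axis) in young (circles), old H2O (squares) and old NR hearts (diamonds). All 18 intervals exclude 0; for Dbp, Tef, Hlf and Nfil3 the young interval lies clear of both old ones, for Bhlhe41 it lies clear of that of old H2O hearts, and for Bhlhe40 the 3 intervals overlap.

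Whether the difference between the times changed with age was tested as an interaction, the log2 fold change of old H2O hearts minus that of young hearts. Of the 6 genes, 5 were called, 1 with a positive and 4 with a negative sign, against 6.89% of all genes tested (3.13% and 3.76%). Dbp had the interaction -1.40 ± 0.23 (95% interval -1.88 to -0.91, adjusted p = 0.00103), so that its swing on the log2 scale was 70.1% of that in young hearts. Nfil3 had 1.60 ± 0.23 (1.12 to 2.09, adjusted p = 0.000279), which has the other sign, Nfil3 being higher at ZT22, and its swing was 40.1% of that in young hearts. Tef had -0.57 ± 0.14 (adjusted p = 0.017), Bhlhe41 -0.58 ± 0.13 (adjusted p = 0.0106) and Hlf -0.44 ± 0.13 (adjusted p = 0.0432), with swings of 63.8%, 44.2% and 72.6%. Bhlhe40 was not called, at 0.19 ± 0.17 (-0.16 to 0.53, adjusted p = 0.569). The Hlf call was lost with DESeq2 (adjusted p = 0.0527), with no filter on low counts (0.0568) and without any old H2O heart at ZT10, old H2O replicate 2 at ZT22, young replicates 1 or 3 at ZT10 or young replicates 1 or 2 at ZT22 (0.0512 to 0.134). The Tef call was lost without young replicate 2 at ZT22 (0.056).

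At ZT10, old H2O hearts had less Hlf and Bhlhe41 and more Nfil3 than young hearts. Of the 6 genes, 3 were called, against 5.87% of all genes (2.95% higher and 2.92% lower). Hlf differed by -0.37 ± 0.09 on the log2 scale (mean normalized count 848.1 ± 40.2 against 1094 ± 102, SD, adjusted p = 0.0121), Bhlhe41 by -0.33 ± 0.09 (386.2 ± 39.4 against 484.6 ± 30, adjusted p = 0.0302) and Nfil3 by 0.76 ± 0.19 (157.5 ± 20.7 against 93.39 ± 19.8, adjusted p = 0.021). Dbp lay at the threshold without passing it, at -0.33 ± 0.10 (769.1 ± 47.1 against 966 ± 112, adjusted p = 0.0505), and it was called with the replicate block (0.0229), with the library total as covariate (0.0319) and with only these 2 groups fitted (0.00859). Tef had -0.23 ± 0.10 (adjusted p = 0.196) and was called with only these 2 groups fitted (0.0193), and Bhlhe40 had -0.15 ± 0.11 (adjusted p = 0.519). The young and old H2O hearts did not overlap in any of the 6 genes at ZT10, which was so for 27.8% of all genes. The calls at ZT10 rested on few hearts: without young replicate 1 none of the 6 was called (adjusted p of Hlf 0.0813, Nfil3 0.111 and Bhlhe41 0.128), Hlf and Bhlhe41 were lost without old H2O replicate 3 (0.0668 and 0.161), Nfil3 and Bhlhe41 without old H2O replicate 2 (0.113 and 0.0808), Nfil3 without young replicate 3 (0.0734), and Bhlhe41 without young replicate 2 (0.0768) and with DESeq2 (0.0624), while Dbp was called without young replicate 2 (0.0493).

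At ZT22, old H2O hearts had more Dbp and Tef and less Nfil3. Of the 6, 3 were called, against 14.1% of all genes (7.96% higher and 6.17% lower). Dbp was at 82.07 ± 14.8 against 38.9 ± 13.8 in young hearts (log2 fold change 1.07 ± 0.21, adjusted p = 0.0019), and Nfil3 at 332.5 ± 12.3 against 597.9 ± 71.3 (-0.85 ± 0.13, adjusted p = 0.000219). Tef was at 1211 ± 143 against 949.3 ± 126 (0.35 ± 0.10, adjusted p = 0.0285). Hlf had 0.08 ± 0.10 (adjusted p = 0.669), Bhlhe40 -0.33 ± 0.12 (adjusted p = 0.0693) and Bhlhe41 0.25 ± 0.10 (adjusted p = 0.0986), and in these 3 the groups overlapped. The groups did not overlap in the 3 genes called, as was so for 28.2% of all genes. The Tef call was lost without old H2O replicates 1 or 2 or young replicates 1 or 2 (adjusted p 0.0562 to 0.154) and with only these groups fitted (0.0733). It was also lost without the 2 shallowest hearts (0.0843). Bhlhe40 was called without old H2O replicate 1 (0.00531), young replicate 1 (0.0171) or the 2 shallowest hearts (0.00433). For the mean of both times, only Dbp was called (0.37 ± 0.12, adjusted p = 0.0452, against 11.8% of all genes, 6.86% higher and 4.95% lower), and it kept its call only without old H2O replicate 3 at ZT22, young replicate 1 at ZT10 or young replicate 3 at ZT22, the adjusted p without any other heart being 0.0538 to 0.242. Bhlhe40 at -0.24 ± 0.08 was not called (adjusted p = 0.0615), but was called without old H2O replicate 1 (0.0056) or young replicate 1 (0.018) at ZT22. Without the 2 shallowest hearts, the mean of both times was called for Bhlhe40 (-0.319, 0.00464) and not for Dbp (0.079).

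**Figure D3:**
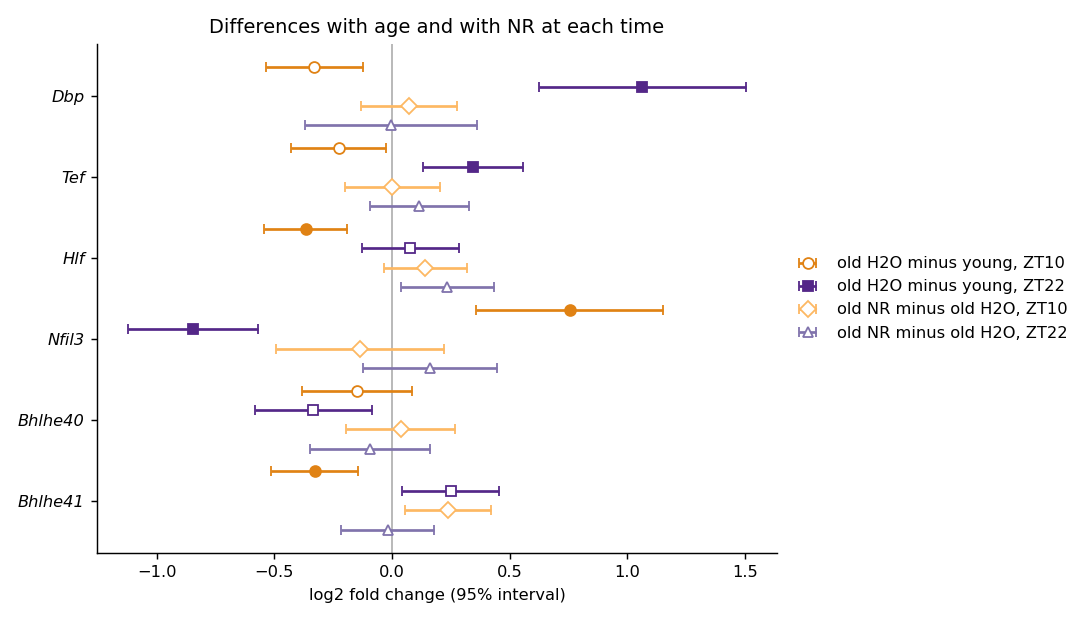
Fitted log2 fold changes at ZT10 and ZT22 (horizontal axis, with 95% intervals) of old H2O hearts minus young hearts and of old NR hearts minus old H2O hearts, for each gene (vertical axis); filled symbols passed the test. Dbp and Tef with age lie below 0 at ZT10 and above it at ZT22 and Nfil3 the other way, and no NR difference passed the test.

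Macrophage markers moved with age at ZT22: 3 of 4 were called higher in old H2O hearts, and their summed normalized counts were 1166 to 1318 (most abundant Csf1r) against 901.1 to 987.4 in young hearts. Of 5 fibroblast markers, 2 were called higher and 1 lower. Also called higher at ZT22 were Cd3g, 1 of 3 T and B cell markers, and Alas2, 1 of 4 red blood cell markers. Fabp4, 1 of 4 adipose markers, was called lower. These single genes did not stand for their lists. The median log2 fold change there was -1 over the T and B cell markers tested, 0.022 over the red blood cell markers and 0.469 over the adipose markers. Cd3g had only 1 to 18 counts per heart. At ZT10 the calls were Adgre1, 1 of 4 macrophage markers, and Alas2, both higher, and Col1a1, 1 of 5 fibroblast markers, which was lower. The red blood cell sums at ZT10 were 669.8 to 786.9 in old H2O and 417.6 to 613.6 in young hearts. No share of cardiomyocytes can be read from the cardiomyocyte markers, since the counts of Myh6 and Actc1 hardly changed between libraries of unlike depth. In the age by time interaction, 2 of 4 macrophage and 1 of 5 fibroblast markers were called, all with a negative sign. The part of these differences in the results was not tested. In bulk tissue, fewer cells that express a gene and less RNA per cell cannot be told apart.

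NR in old mice was compared with water alone to ask whether any of the factors moved toward its level in young hearts. None of the 6 was called at ZT10, at ZT22, for the mean of both times or for the NR by time interaction by edgeR, or by DESeq2 in any of these comparisons. Of all genes, 0.285%, 0.35%, 0.337% and 0.343% were called, in that order. These shares stand for 44, 54, 52 and 53 genes and moved with the libraries used. Without 1 library the counts ran from 0 to 22 at ZT10, from 2 (without old NR replicate 2 at ZT22) to 78 at ZT22, from 22 (without old NR replicate 1 at ZT10) to 66 for the mean and from 15 (without old H2O replicate 3 at ZT10) to 78 for the interaction. With only the groups compared they were 234, 2, 56 and 63, and with the library total as covariate 78, 155, 144 and 96. None of the 6 genes was called in any of these fits. At an unadjusted p under 0.05 there was 1 of the 6 at ZT10 (Bhlhe41), 1 at ZT22 and 1 for the mean of both times (Hlf in both), and 0 for the interaction. Of all genes, 10.1%, 11.2%, 10.8% and 10.3% were under that p, in the same order. Old NR and old H2O hearts overlapped in every gene at both times except Hlf at ZT10, where 18.8% of all genes did not overlap (14.7% at ZT22). At ZT10 the differences ran from -0.14 ± 0.17 on the log2 scale for Nfil3 to 0.24 ± 0.09 for Bhlhe41 (95% interval 0.06 to 0.42, adjusted p = 0.321). Dbp differed by 0.07 ± 0.10 there, with an interval of -0.13 to 0.28. At ZT22 they ran from -0.09 ± 0.12 for Bhlhe40 to 0.24 ± 0.10 for Hlf (0.04 to 0.43, adjusted p = 0.343). For the mean of both times Hlf had 0.19 ± 0.06 (0.06 to 0.32, adjusted p = 0.236). The interactions with time that lay farthest from 0 were -0.30 ± 0.22 for Nfil3 (-0.75 to 0.16, adjusted p = 0.689) and 0.26 ± 0.13 for Bhlhe41 (-0.01 to 0.52, adjusted p = 0.511). Markers of other cell types moved in the same comparison. Of 5 atrium markers, 3 were called lower with NR at ZT10 (sums 631.6 to 735.5 against 2195 to 2856, Myl4 the most abundant) and 0 at ZT22 (906.4 to 1273 against 693.5 to 2995). Of 4 macrophage markers, 0 were called at ZT10 (980.1 to 1021 against 1017 to 1170) and 2 were lower at ZT22 (848.1 to 909.6 against 1166 to 1318, Csf1r the most abundant). Of 5 fibroblast markers, 1 was called lower at each time (4502 to 5263 against 5824 to 6692 at ZT10, and 5002 to 5741 against 5874 to 7167 at ZT22, Dcn the most abundant). At ZT10 these calls, like all 44 made over all genes there, were lost in edgeR when old NR replicates 1 and 3 counted as 1 sample, and without old NR replicate 1 or 3 or old H2O replicate 3. At ZT22 only 2 genes of all were called without old NR replicate 2 or with only the groups compared, so that at most 2 of the 3 marker calls there could remain. The part of these markers was not tested.

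Old NR hearts were also set against the same young hearts that served for old H2O. At ZT10 none of the 6 was called by edgeR, against 4.28% of all genes. At an unadjusted p under 0.05 there were 4 of the 6, beside 17.7% of all genes. The groups did not overlap in 3 (Dbp, Tef and Hlf), as was so for 25.4% of all genes. Nfil3 came nearest at 0.62 ± 0.19 (142.7 ± 34.5 against 93.39 ± 19.8, adjusted p = 0.0692), and DESeq2 called it (0.0328), as did the fits of only these groups (0.0226) and without old NR replicate 1 (0.0352). Dbp had -0.26 ± 0.10 (808.4 ± 59.4 against 966 ± 112, adjusted p = 0.149), beside -0.33 ± 0.10 in old H2O hearts. At ZT22, 5 of the 6 were called, against 14.2% of all genes (7.6% higher and 6.58% lower): Dbp at 1.06 ± 0.21 (adjusted p = 0.00159), Tef at 0.46 ± 0.10 (0.00404), Hlf at 0.31 ± 0.10 (0.0343), Nfil3 at -0.69 ± 0.13 (0.0011) and Bhlhe40 at -0.43 ± 0.12 (0.0208), with Bhlhe41 at 0.23 ± 0.10 (0.126). Dbp, Tef and Nfil3 did not overlap between the groups, as was so for 27.5% of all genes. The Hlf and Bhlhe40 calls were both lost without old NR replicate 2 (adjusted p 0.223 and 0.131), without young replicate 2 (0.205 and 0.111) and with only these groups fitted (0.105 and 0.0543), Hlf also without old NR replicate 3 (0.0543) or young replicate 1 (0.0674), and Bhlhe40 without young replicate 3 (0.0823). The interaction with time called Dbp (-1.32 ± 0.23, adjusted p = 0.00155), Tef (-0.69 ± 0.14, 0.00541), Hlf (-0.54 ± 0.13, 0.0145) and Nfil3 (1.31 ± 0.23, 0.00158), against 5.98% of all genes (3.21% positive and 2.77% negative). Bhlhe40 (0.31 ± 0.16, 0.301) and Bhlhe41 (-0.32 ± 0.13, 0.16) were not called, and Hlf lost its call without old NR replicate 2 (0.0606) or young replicate 2 (0.0533) at ZT22. Of 5 fibroblast markers, 2 were lower in old NR than in young hearts at each time, and of 4 endothelium markers 0 at ZT10 and 2 at ZT22. Of 4 red blood cell markers, 1 was higher at each time. Of 4 adipose markers, 0 at ZT10 and 1 at ZT22 were lower, with a median log2 fold change of 0.059 at ZT22. Of all these, 0 were called in the interaction, and their part was not tested. That Bhlhe41 was called in old H2O and not in old NR hearts is not a difference between them: its NR by time interaction, given above, did not pass the test.

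DBP, TEF and HLF compete with NFIL3 for D-boxes, so their transcripts were also set against each other on a per-length scale, as the sum of Dbp, Tef and Hlf per kilobase of exon over Nfil3 per kilobase. This is a ratio of RNA levels and says nothing of protein. The length is that of all annotated exons of a gene together, 7867 bases for Tef with 10 transcripts and 2026 for Nfil3 with 1. Which transcripts were expressed was not tested, and the side of 1 on which a ratio falls depends on these lengths. In young hearts the ratio was 24.7, 14.2 and 18.5 at ZT10 and 0.728, 0.499 and 0.697 at ZT22. By these lengths, Nfil3 per kilobase was above the 3 activators together in every young heart at ZT22. In old H2O hearts it was 10.3, 7.65 and 9.13 at ZT10 and 1.65, 1.41 and 1.29 at ZT22. In old NR hearts it was 13.9, 7.49 and 10.8 at ZT10 and 1.1, 1.76 and 1.39 at ZT22. By the same lengths, the activators together were above Nfil3 in all 12 old hearts. At neither time did the ratios of old hearts overlap those of young ones (the nearest at ZT10 were 13.9 and 14.2). The make-up of the sum shifted with time: Dbp made up 38% of it in young hearts at ZT10 (SD 1.94, n = 3) but 6.81% at ZT22 (SD 1.67), against 37% and 11.5% in old H2O hearts and 37.5% and 10.2% in old NR hearts, Tef being the larger part at ZT22 in each.

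**Figure D4:**
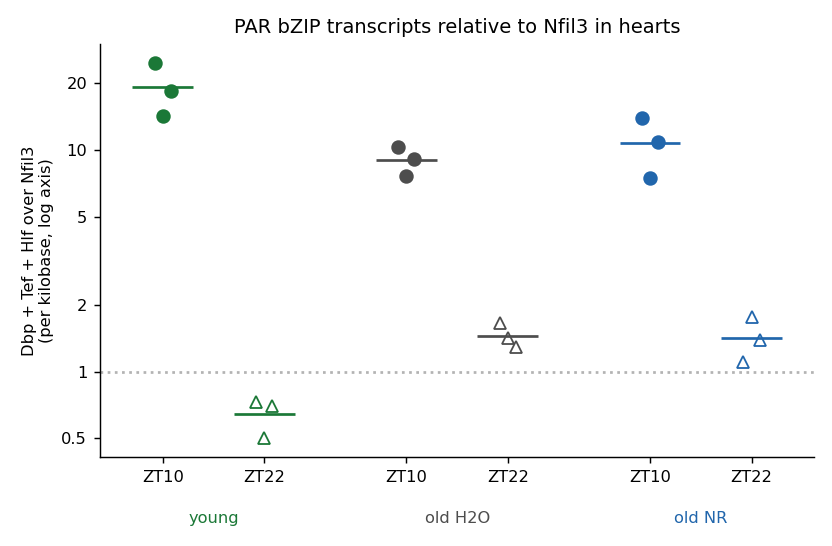
Sum of Dbp, Tef and Hlf over Nfil3, each per kilobase of exon, in each of 18 hearts (vertical axis, log scale) by group and time (horizontal axis: filled circles ZT10, open triangles ZT22), with group means as lines and a dotted line at 1. The young ZT22 hearts (0.499 to 0.728) lie below the line, and all 12 old hearts lie above it.

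The levels can be ranked only per length, as reads per kilobase of exon scaled to library size (RPKM, from TMM library sizes). The ranks rest on the same exon lengths. In young hearts at ZT10 Tef was highest at 64 ± 2.4 and Dbp next at 57.1 ± 6.61 (SD, n = 3), which lie within their spread of each other, as do Hlf at 29 ± 2.71 and Bhlhe40 at 28.8 ± 1.8. Bhlhe41 stood at 12.8 ± 0.79 and Nfil3 lowest at 8.16 ± 1.73. At ZT22 the order was led by Nfil3 at 52.2 ± 6.23, followed by Tef at 21.4 ± 2.83 and Bhlhe40 at 19.2 ± 2.9, which lie within their spread, then Hlf at 9.46 ± 1.2, Bhlhe41 at 6.23 ± 0.625 and Dbp at 2.3 ± 0.818. In old H2O hearts at ZT22, Nfil3 at 29 ± 1.08 and Tef at 27.2 ± 3.22 were within their spread, and Dbp at 4.85 ± 0.876 was still the lowest, after Bhlhe41 at 7.49 ± 0.704.

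Across the 18 hearts, Dbp, Tef and Hlf followed one another closely, with Pearson r of log2 CPM (counts scaled to library size) between 0.977 and 0.987, and each ran against Nfil3 (r -0.957, -0.958 and -0.952). These values are a description: the 18 points share 6 group means, and with those removed r fell to between 0.588 and 0.805 among the 3 and to between -0.519 and -0.29 with Nfil3. Bhlhe41 went with Tef (0.968), and 0.802 with the group means removed, while Bhlhe40 went least with the others (0.795 to 0.831 with the PAR bZIP genes, and -0.754 with Nfil3). Among 11075 other genes with an average count of at least 50, the pattern most like that of Dbp was that of Per3 (r 0.983), a Period gene of the clock loop, followed by Tspan4 (0.974) and Nr1d2 (0.971), the gene of REV-ERB beta. For Tef the 3 were the same genes, Per3 (0.984), Nr1d2 (0.973) and Tspan4 (0.967), and for Hlf they were Ciart (0.981), a repressor of CLOCK and BMAL1, Per3 (0.969) and Tspan4 (0.963). Nfil3 was most like Unc119b (0.969), Cldn5 (0.967), a tight junction gene of endothelium, and Arntl (0.964). Bhlhe41 was most like Eif4ebp1 (0.98), which encodes a repressor of translation initiation, Per3 (0.951) and Tspan4 (0.941). Bhlhe40 stood apart, with Ier3 (0.96), an immediate early gene, Coq10b (0.941) and Gpr146 (0.928). With the group means removed, the likeness of these genes was lower in every case: for Dbp 0.646 (Per3), -0.08 (Tspan4) and 0.183 (Nr1d2), for Tef 0.514, 0.516 and 0.254 (Per3, Nr1d2 and Tspan4), and for Hlf 0.288, 0.713 and -0.008 (Ciart, Per3 and Tspan4). It was 0.628, 0.492 and 0.65 for the 3 genes named for Nfil3, 0.862, 0.537 and 0.665 for those of Bhlhe40, and 0.754, 0.262 and 0.34 for those of Bhlhe41.

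The clock loop around these factors moved in the same comparisons. Of its 14 listed genes, young hearts had 7 higher at ZT10 and 5 higher at ZT22, old H2O hearts 8 and 5, and old NR hearts 7 and 5, with median log2 fold changes of 0.60, 0.51 and 0.15 (all genes 0.007, -0.001 and -0.01). Of all genes, 14.4%, 4.2% and 5.37% were called, in that order. The list holds genes of both directions, so that its median does not measure the size of their differences. In young hearts Arntl led with -5.86 ± 0.18, then Per3 with 3.19 ± 0.09, Ciart with 2.93 ± 0.15 and Nr1d2 with 2.15 ± 0.11. In old H2O hearts these were -3.19 ± 0.14, 1.63 ± 0.08, 2.31 ± 0.15 and 1.35 ± 0.11, and Per2 had 2.05 ± 0.15. The age by time interaction called 6 of the 14, against 6.89% of all genes. Among them were Arntl (2.67 ± 0.30, adjusted p = 1.72e-05), Per3 (-1.55 ± 0.13, 5.87e-07), Nr1d2 (-0.80 ± 0.15, 0.00328) and Clock (0.75 ± 0.14, 0.00285). NR against water called 0 of the 14 at ZT10, 1 higher at ZT22, 1 higher for the mean of both times and, in the interaction with time, Arntl (-1.36 ± 0.26, adjusted p = 0.0201), and 1 of 11 E-box genes was called higher at ZT22 and for the mean. Of all genes, 0.35%, 0.337% and 0.343% were called at ZT22, for the mean and in the interaction, shares that moved with the libraries used. The Arntl call with NR was not followed through the other settings, such as old NR replicates 1 and 3 at ZT10 counted as 1 sample. The Per, Nr1d and Cry genes belong to several of the lists, so that the lists are not independent of one another.

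The counts that follow stand beside 14.4% of all genes called in young hearts (6.8% higher and 7.57% lower at ZT10), 4.2% in old H2O hearts, 5.37% in old NR hearts and 6.89% in the interaction with age. Of 12 tested genes named as D-box genes, 5 were higher and 1 lower at ZT10 in young hearts (median log2 fold change 0.47) and 7 and 1 in old H2O hearts (0.34), and of 11 E-box genes 9 were higher and 1 lower at both ages (1.51 and 1.16). The interaction with age called 4 of the D-box genes, Per3, Nr1d2, Per1 (-0.65 ± 0.19, adjusted p = 0.0441) and Cry1 (0.51 ± 0.13, 0.0195), and 3 of the E-box genes, the first 3 of these. Among the C/EBP relatives of the PAR bZIP factors, 2 of 4 were higher at ZT10 in young hearts, Cebpb (1.03 ± 0.14, adjusted p = 1.52e-05) and Cebpd (0.66 ± 0.22, 0.0484), and 1 of 4 in old H2O hearts (Cebpb, 1.05 ± 0.14), and the interaction with age called Cebpg (0.27 ± 0.08, 0.0462). Among 6 Hairy and Hey relatives of the DEC factors, Heyl was lower (-0.34 ± 0.11, 0.0394) and Hes6 higher (0.33 ± 0.10, 0.0387) at ZT10 in young hearts, and none was called in old H2O hearts. Of 10 hypoxia response genes, 3 were lower at ZT10 in young hearts, Egln3 (-0.83 ± 0.11, 1.24e-05), Vegfa (-0.39 ± 0.11, 0.021) and Bnip3 (-0.35 ± 0.11, 0.0385), where Bhlhe40, itself known to respond to hypoxia, was higher. In old H2O hearts 0 of these 10 were called, and the interaction called Egln3 (1.01 ± 0.15, 0.000345). Egln3 was higher at ZT10 in old NR hearts (0.40 ± 0.11, 0.0255). Whether hypoxia had a part in the level of Bhlhe40 was not tested.

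HL-1 cells were used to lower NAD+ with FK866, to give it back with NR and to block sirtuins on top of that. The libraries labelled cardiomyocyte held next to no cardiomyocyte RNA. Of the 6 cardiomyocyte markers, Actc1 was at 0 in all 12 libraries and Myh6 at 0 to 6 counts, Tnnt2, the most abundant, was at 4 to 43, Ryr2 at 0 to 77, and the summed normalized counts were 6.84 to 113.8. Of the 5 atrium markers, Nppa was at 0 in 8 libraries and Sln in 11. Fibroblast markers were abundant, with Col1a1 at 11141 to 26657 counts, Col3a1 at 44017 to 90188 and sums of 66070 to 107300, although Lum was at 0 in 10 libraries. The values below are therefore those of the libraries labelled HL-1 and not of cells with a cardiomyocyte profile. The sum of fibroblast markers itself was lower with FK866 (66070 to 69720) than without (97860 to 107300). Tnnt2, the one cardiomyocyte marker tested, was higher with FK866 (2.87 ± 0.46, edgeR adjusted p = 0.000364), and the cardiomyocyte sums were 25.58 to 50.37 against 15.34 to 16.67 in untreated cells. Alas2, the one red blood cell marker tested, was lower with FK866 (-1.13 ± 0.27, 0.00659), with sums of 70.94 to 147 against 213.6 to 227. It was also lower with Ex527 than with FK866 and NR (-1.88 ± 0.29, 0.00142). The part of these differences in the results was not tested. The cultures carry no time label, so that no swing can be given.

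Levels in HL-1 libraries are given beside those in hearts without a test, since the tables were made separately. Per kilobase, untreated cells held Bhlhe40 at 37.3 ± 1.45 RPKM (SD, n = 3), Nfil3 at 19.3 ± 1.31, Tef at 8.44 ± 0.581 and Dbp at 3 ± 0.331, while Hlf at 0.291 ± 0.0184 and Bhlhe41 at 0.279 ± 0.0519 were nearly silent, with 34 to 114 and 24 to 65 counts in the 12 libraries. By the exon lengths used for hearts, the ratio of the PAR bZIP sum to Nfil3 lay below 1 in every library, between 0.534 and 0.776. It did so in young hearts at ZT22 (0.499 to 0.728) and in no other heart group.

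Dbp was lower with FK866. It was the 1 of 6 genes called (adjusted p under 0.01 and a change over 1.5-fold), against 4.59% of all genes (2.09% higher and 2.5% lower). Dbp stood at 207.4, 259 and 236.3 normalized counts in untreated cells and at 140.7, 144.4 and 138.8 with FK866, with no overlap, a log2 fold change of -0.73 ± 0.12 (95% interval -0.99 to -0.48, adjusted p = 0.000458). Nfil3 also lay apart, at 976.5, 981.7 and 1099 against 776.8, 651.3 and 688.8 (-0.53 ± 0.08, -0.69 to -0.37, adjusted p = 0.000169). Its change was under the 1.5-fold limit (0.585 on the log2 scale), so it was not called, except without FK866 replicate 1 (-0.60). Bhlhe40 had 4374, 4638 and 4714 without and 5290, 5001 and 5174 with FK866 (0.17 ± 0.05, adjusted p = 0.0255, not called). Tef had -0.16 ± 0.07 (adjusted p = 0.104), and its groups overlapped, as did those of Hlf and Bhlhe41 at their low counts. The 3 genes without overlap compare with 36.6% of all genes.

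With NR added to FK866 none of the 6 was called against FK866 alone by edgeR, against 4.81% of all genes, and DESeq2 called none either. At an unadjusted p under 0.05 there were 4 of the 6, beside 40.2% of all genes. Dbp stood at 171.8, 184.7 and 163.2, between the FK866 and the untreated libraries and overlapping neither. The groups did not overlap in 3 genes against FK866 alone (Dbp, Tef and Nfil3) and in 3 against untreated cells (Dbp, Nfil3 and Bhlhe40), beside 42.8% and 45% of all genes. The difference from FK866 was 0.29 ± 0.12 (0.03 to 0.55, adjusted p = 0.087) and that from untreated cells -0.44 ± 0.12 (-0.69 to -0.19, adjusted p = 0.0197), where 0.901% of all genes (133) were called. That share was not stable: without 1 library it ran from 0 genes (without untreated replicate 2 or 3 or any one FK866 and NR library) to 427 (without untreated replicate 1), and it was 0 with genes averaging over 5 counts or with the library total as covariate, 8 with the replicate block, 198 with only the groups compared, 294 with DESeq2 and 764 with no filter on low counts. Hlf had 138, 50.16 and 52.54 against 45.35, 38.05 and 53.46 (0.79 ± 0.33, adjusted p = 0.082). That mean rested on replicate 1, which also had the highest sums of cardiomyocyte (113.8) and endothelium (38.72) markers of the 12 libraries, and without it the difference was 0.17 (adjusted p = 0.625), against 0.69 to 1.04 without any other of these 6 libraries.

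When Ex527 was added to FK866 and NR, none of the 6 was called against FK866 and NR (0.596% of all genes) or against FK866 alone (1.27%), by edgeR or DESeq2. At an unadjusted p under 0.05 there were 1 and 3 of the 6, beside 23.2% and 27.1% of all genes. The groups did not overlap in 2 and 4 of the 6, beside 33.3% and 29.5% of all genes. The shares called stand for 88 and 188 genes and moved with the libraries used. The 88 became 51 without FK866 and NR replicate 1 and 44 with the library total as covariate. The 188 became 112 without Ex527 replicate 2, 291 without FK866 replicate 3 and 38 with that covariate. Dbp stood at 150.1, 165.8 and 136, which is lower than in untreated cells by a log2 fold change of -0.64 ± 0.12 (adjusted p = 0.00349), the one call of the 6 in that comparison, where 1.42% of all genes were called (0.61% higher and 0.806% lower). Dbp, Hlf and Nfil3 did not overlap there, as was so for 37.7% of all genes. This call was lost with the library total as covariate (adjusted p = 0.0113) and without untreated replicates 2 (0.0207) or 3 (0.0137) or Ex527 replicates 1 (0.0165) or 3 (0.0121). The red blood cell marker tested was also lower than in untreated cells (-2.075), with sums of 33.77 to 85.89 against 213.6 to 227. Of 4 fibroblast markers tested, 1 was lower, with sums of 85790 to 88890 against 97860 to 107300. The part of these markers was not tested. Nfil3 stood at 914.3, 958.2 and 945.4, above all 3 FK866 libraries (0.41 ± 0.08, adjusted p = 0.0031, under the 1.5-fold limit). Bhlhe41 had 31.76, 28.38 and 43.15 against 68.61, 50.36 and 41.12 with FK866 alone (-0.63 ± 0.31, adjusted p = 0.209). The comparisons with FK866 and with untreated cells share those libraries.

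**Figure D5:**
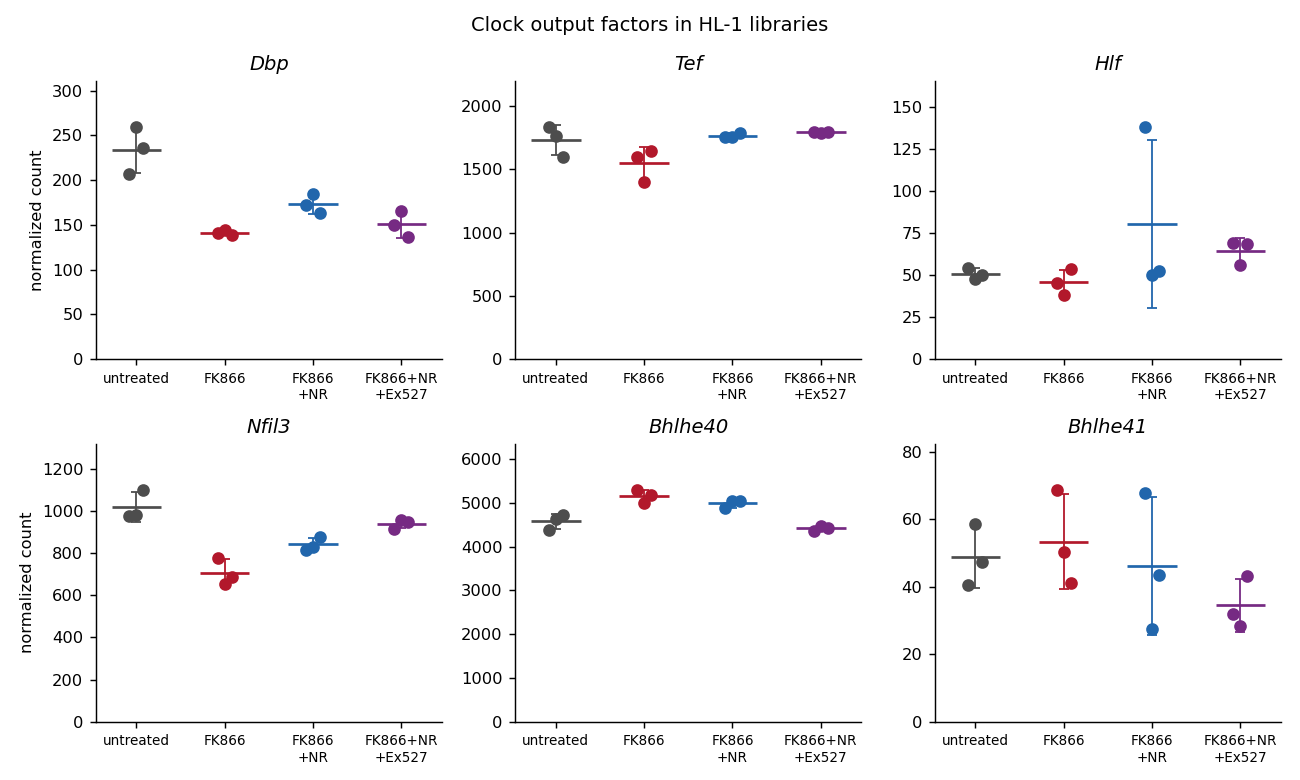
Normalized counts of the 6 genes in 12 HL-1 libraries (vertical axes, starting at 0) by treatment (horizontal axis). Points are libraries, lines means and bars SD (n = 3); Dbp and Nfil3 are highest in untreated and lowest in FK866 libraries by mean, and 1 FK866 and NR library stands far above the others for Hlf.

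Among the clock genes in these libraries, 3 of 12 tested were higher with FK866, among them Per1 (0.84 ± 0.11, adjusted p = 5.17e-05) and Cry2 (0.64 ± 0.10, 0.000401), and none was lower (median log2 fold change 0.32, all genes 0.02). Of all genes, 2.09% were higher and 2.5% lower. NR against FK866 alone called 1 of the 12 higher, Per3 (0.64 ± 0.14, 0.00283), and 1 lower, against 4.81% of all genes. Of the relatives of the DEC factors, Hey1 was lower with FK866 (-1.35 ± 0.07, 2.09e-08) and higher when NR was added (0.93 ± 0.07, 9.87e-07). Of 10 hypoxia response genes, Bnip3 (-0.67 ± 0.09, 7.45e-05) and Egln3 (-0.60 ± 0.07, 2.3e-05) were lower with FK866, and 3 were higher when NR was added, Pdk1 (1.10 ± 0.10, 2.21e-06), Bnip3 (0.98 ± 0.09, 2.59e-06) and Egln3 (0.65 ± 0.07, 1.33e-05), while Bhlhe40 was called in neither. With Ex527 on top, 3 of the 10 were lower than with FK866 and NR, where 0.596% of all genes were called, Adm (-1.89 ± 0.33, 0.00391), Bnip3 (-0.74 ± 0.09, 0.000211) and Pdk1 (-0.71 ± 0.09, 0.000469). A link of the hypoxia response genes with Bhlhe40 was not tested here either.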

How the data were processed

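Hearts: the authors aligned single-end reads to mm10 with STAR 2.7.10a after Trimmomatic 0.39, took out duplicates (Picard 3.0.0) and reads that were ribosomal, mitochondrial or multi-mapping, and counted exons with featureCounts 2.0.4. The deposited counts of whole reads per gene were used. A second deposited table holds counts that the authors divided by DESeq2 1.36.0 size factors and rounded (entered as a score here), and gave only gene names. HL-1: the submitters' processing notes name HISAT2 on mm10, and the deposited raw counts were used together with the gene lengths listed there. FPKM values were not used.

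All 18 hearts were fitted together, and so were the 12 HL-1 libraries, with edgeR 4.0.16 (R 4.3.3): TMM, 1 mean per group, the quasi-likelihood test (two-sided) and Benjamini-Hochberg adjustment over all genes tested. In hearts the test covered genes averaging over 5 counts, with calls at an adjusted p under 0.05. HL-1 genes that passed filterByExpr were called at an adjusted p under 0.01 and a change over 1.5-fold. Standard errors follow from the F statistic, and 95% intervals from its degrees of freedom. The members and lists were chosen with earlier results of these data known. From each list at most 4 called genes with the largest changes are named, 1 gene of the lists not being reported here, and for each member the 3 genes most like it over 18 hearts (Pearson r, log2 CPM, prior count 1). DESeq2 1.42.0, other scalings and filters, a replicate block, the library total as covariate, fits of only the groups compared, and leaving out each library were tried. The script was tested on simulated counts. Sequences are from RefSeq, gene models from GENCODE M21.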

Additional observations from a re-analysis of the deposited data

Results flagged for a closer look

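The difference between ZT10 and ZT22 was not the same in young and in old hearts for several of the factors, by edgeR's test of the interaction itself. Of 18 interactions fitted for the 6 genes, 9 passed. Of all genes tested, 6.89% passed for old H2O against young hearts, 5.98% for old NR against young hearts and 0.343% for NR against H2O in old hearts. Between old H2O and young hearts these were Dbp (-1.395 on the log2 scale, adjusted p = 0.00103), Tef (-0.573, 0.017), Hlf (-0.443, 0.0432), Nfil3 (1.603, 0.000279) and Bhlhe41 (-0.578, 0.0106). Between old NR and young hearts they were Dbp (-1.32, adjusted p = 0.00155), Tef (-0.687, 0.00541), Hlf (-0.537, 0.0145) and Nfil3 (1.306, 0.00158). The same young hearts enter both sets. None of the 6 interactions between old NR and old H2O hearts passed. With 3 samples in a group, single outlying samples were not tested for.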

How the results depend on the processing

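Over 20 comparisons the 6 genes gave 120 results, of which 41 were called. None of the 41 changed direction in any setting, 34 were called in every alternative other than leaving out 1 library, and 30 in every fit without 1 library, where 44 of 306 fits made no call. Such fits leave 2 samples in an arm and take the spread from all groups. The number of genes called out of 6 moved by over 1.5 times in some settings. With only the groups compared it was 5 for old H2O against young hearts at ZT10, 0 for the mean of both times, 1 for old NR against young hearts at ZT10 and 3 at ZT22. Over all genes the same setting moved the counts from 906 to 1479, 1824 to 1658, 661 to 1036 and 2189 to 1214. For old H2O against young hearts at ZT22 that setting moved the count over all genes from 2183 to 1168. Without 1 library the counts over all genes ran from 349 to 746 for ZT10 against ZT22 in old H2O hearts (649 with all libraries) and 455 to 875 in old NR hearts (829), 478 to 614 for old H2O against young hearts at ZT10 (906) and 1321 to 2007 at ZT22 (2183), 287 to 490 for old NR against young hearts at ZT10 (661) and 1301 to 2139 at ZT22 (2189), and 93 to 380 for Ex527 against untreated cells (209). For old NR against young hearts by time they ran from 587 to 1066 (924). Of the 6 genes, DESeq2 called 1 for old NR against young hearts at ZT10. So did leaving out the 2 shallowest hearts, a setting chosen after seeing the data. With the library total as covariate the number called out of 6 was 0 for Ex527 against untreated cells. Without 1 library the number called out of 6 ran from 0 to 3 for old H2O against young hearts at ZT10, 0 to 1 for the mean of both times, 3 to 5 for age by time, 0 to 1 for old NR against young hearts at ZT10, 3 to 5 at ZT22, 1 to 2 for FK866 and 0 to 1 for Ex527 against untreated cells. Smaller moves were 3 to 4 for old H2O against young hearts at ZT10, where Dbp was called with filterByExpr (edgeR adjusted p = 0.0495), with the library total as covariate (0.0319) and without the 2 shallowest hearts (0.0344), 3 to 2 there and 5 to 4 for age by time with DESeq2, the latter also with no filter on low counts, 3 to 2 for old H2O against young hearts at ZT22 with only the groups compared, and, without 1 library, 2 to 3 in that comparison and 3 to 4 for old NR against young hearts by time. The cause was not tested.

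Replicate numbers are shared between groups but did not pair the samples: deviations from the group means correlated at -0.09 to 0.16 over 45 same-numbered heart pairs and -0.27 to 0.13 over 18 HL-1 pairs. The replicate block changed 1 call, Dbp in old H2O against young hearts at ZT10 (-0.325, edgeR adjusted p = 0.0229), which made 4 called in place of 3.

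Of 79 results not called, 23 had the other sign in some setting. Among those named, Hlf with age at ZT22 ran from -0.02 to 0.175 without 1 library, Nfil3 with NR at ZT10 from -0.342 to 0.014, and Bhlhe40 with NR at ZT22 from -0.218 to 0.059, and 0.074 without the 2 shallowest hearts. Depth limits Hlf and Bhlhe41 in HL-1 cells most, at 24 to 114 counts, and Dbp in young hearts at ZT22 among the heart values.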
